A study of Mus musculus with 8 samples.

Results

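Wild-type Th17 cells were compared with Th17 cells that carried a control vector, the 2 groups of the study in which no microRNA had been changed. The comparison covered the 11510 genes, of 24426 with a symbol, that had at least 10 counts in 2 or more of the 4 libraries concerned. Of the genes near that limit, 107 had exactly 10 counts in their second highest library (median 36 counts summed over the 4 libraries) and were included, and 124 had 9 (median 33) and were not. The study measured polyadenylated RNA in 8 libraries of mouse T cells of the strain C57BL/6J labelled as Th17, with 2 duplicates in each of 4 groups. The control group had been transduced with a control vector and another group with a vector for miR-96. The wild-type group was of the genotype miR-183C+/+ and the remaining group of the genotype miR-183C-/-, in which miR-183C stands for the cluster of the microRNAs miR-183, miR-96 and miR-182. The labels give both genotype groups as not transduced, whereas the protocol, written for all samples, describes a sort of GFP-positive cells, so whether the wild-type cells carried a GFP vector cannot be told from the labels. All groups were cultured under the same condition, named Th17(23), and harvested on day 4 to 5. The 2 groups compared here came from separate experiments of the series. Transduction as labelled, the experiment and the content of sex-linked transcripts changed together between them and cannot be told apart. Whether duplicates were separate cultures or animals is not stated, so the p-values rest on a spread between libraries that may be technical.

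Th17 cells are CD4+ T helper cells that are defined by the secretion of interleukin 17. They are known for defending mucosal surfaces and for driving autoimmune inflammation, and interleukin 23 drives the inflammatory, so-called pathogenic state. A control vector is the usual reference for a gene delivered by a vector, while an untouched wild-type culture is the usual reference for a knockout. Comparing both references shows how far the starting points of the 2 experiments lay apart.

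The genes whose promoters are shown belong to gene groups in which nearly all members differed in 1 direction as values. For 12 of 13 interferon-gamma-inducible GTPases both wild-type libraries lay above both control vector libraries, against 29.3% of all genes tested. For 23 of 24 genes of mitosis both wild-type libraries lay below both control vector libraries, against 26.8% of all genes tested. Each stretch is a RefSeq promoter on GRCm38.p6 of 300 bases, 250 before and 50 after the start of the gene, written 5′ to 3′ on the strand of the gene. Gbp2b (chr3:142594597-142594896, plus strand) and Irgm1 (chr11:48871371-48871670, minus strand) encode GTPases of the defence against intracellular microbes. Plk1 (chr7:122159185-122159484, plus strand) encodes a mitotic kinase and Ccnb2 (chr9:70421505-70421804, minus strand) the cyclin B2. Capitals mark the core of the interferon-stimulated response element (ISRE core, TTTCNNTTT on either strand, overlapping matches in Irgm1) in the first pair. In the second pair they mark the cell cycle genes homology region (CHR, TTTGAA on either strand), a promoter element known from genes of the late cell cycle. Irgm1, Plk1 and Ccnb2 were chosen after their values were seen.
Gbp2b: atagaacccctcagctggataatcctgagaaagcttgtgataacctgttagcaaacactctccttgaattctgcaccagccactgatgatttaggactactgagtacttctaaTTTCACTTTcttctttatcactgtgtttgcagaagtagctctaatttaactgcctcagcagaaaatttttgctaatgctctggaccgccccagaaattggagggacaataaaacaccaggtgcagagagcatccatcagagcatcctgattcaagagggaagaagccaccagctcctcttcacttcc
Irgm1: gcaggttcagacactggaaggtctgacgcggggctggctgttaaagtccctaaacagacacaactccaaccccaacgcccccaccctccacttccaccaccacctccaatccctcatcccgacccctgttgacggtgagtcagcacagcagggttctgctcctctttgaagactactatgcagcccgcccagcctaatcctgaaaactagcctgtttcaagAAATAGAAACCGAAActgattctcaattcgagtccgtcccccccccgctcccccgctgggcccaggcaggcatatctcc
Plk1: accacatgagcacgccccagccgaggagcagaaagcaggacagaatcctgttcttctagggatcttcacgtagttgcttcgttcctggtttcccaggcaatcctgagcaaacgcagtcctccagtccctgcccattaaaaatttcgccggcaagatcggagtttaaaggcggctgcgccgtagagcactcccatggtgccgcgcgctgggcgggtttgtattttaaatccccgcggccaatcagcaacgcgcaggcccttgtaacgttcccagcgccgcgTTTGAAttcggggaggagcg
Ccnb2: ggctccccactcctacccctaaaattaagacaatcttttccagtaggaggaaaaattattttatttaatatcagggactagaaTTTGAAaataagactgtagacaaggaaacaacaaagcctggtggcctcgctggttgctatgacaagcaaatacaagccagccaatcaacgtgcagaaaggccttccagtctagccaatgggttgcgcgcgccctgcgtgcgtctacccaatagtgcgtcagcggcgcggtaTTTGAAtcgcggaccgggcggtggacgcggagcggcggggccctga

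The ISRE core was present in the promoters of all 10 of the 13 listed GTPase genes that matched a RefSeq promoter and in 12 of 16 (75%) of the matched type I interferon-stimulated genes. It was found in 9.55% of the 8851 promoters of tested genes and in 12.1% of all 27025 promoters. The CHR was present in 15 of 20 matched promoters of mitosis genes (75%), against 14.2% of the promoters of tested genes and 20.2% of all promoters. In the promoters of 19 DNA replication genes it was found in 3 (15.8%), a share close to that of the tested genes. The E2F motifs TTTCCCGC and TTTGGCGC, searched on both strands, were found in none of the 20 mitosis promoters and in 4 and 5 of the 19 replication promoters. These matches describe the letters in the window and show no binding.

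The 4 libraries held 12452659 and 10237707 estimated counts with the control vector and 8487972 and 10766968 in wild type. The groups did not fall into 2 clean pairs. Over 9141 genes the median absolute difference in log2 CPM (reads of a gene scaled to the size of the library) was 0.139 between the wild-type libraries and 0.209 between the control vector libraries. Control vector library 1 lay nearest to knockout library 2 (0.174) and control vector library 2 nearest to miR-96 vector library 1 (0.166), so each was closer to a library of another group than to its own duplicate. Differences between control vector and wild-type libraries ranged from 0.175 to 0.315. Log2 fold changes also followed the GC content of transcripts, with a median of 0.17 in the quartile of genes with the lowest GC content, then 0.06, -0.04 and, at the highest, -0.15.

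Transcripts of the sex chromosomes also differed between the libraries. Uty, Kdm5d, Eif2s3y and Ddx3y, 4 genes of the Y chromosome and so of male cells only, summed to 1.02 and 0.0963 CPM in control vector libraries 1 and 2 and to 114 and 282 CPM in wild-type libraries 1 and 2. They summed to 111 and 331 CPM in the miR-96 vector libraries and to 245 and 266 CPM in the knockout libraries. Xist, the RNA that silences one X chromosome in female cells, stood at 1221 and 1475 CPM with the control vector and at 1214 and 388 CPM in wild type. The miR-96 vector libraries held 1082 and 167 CPM of it, and the knockout libraries 0 and 144 CPM. Both control vector libraries thus held Xist with hardly any Y-linked RNA, whereas both wild-type libraries held Y-linked RNA and Xist together. Sex-linked composition was aligned with the groups, and its part in the differences of other genes cannot be told apart from that of the vector and the experiment. Counts of Y-linked genes are uncertain where reads are shared with X-linked copies, and those of Xist where the overlapping antisense gene Tsix contributes, since it is not given whether counting used strand.

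Markers of helper T cells were present in all 4 libraries. Cd3e, a chain of the T cell receptor complex, stood at 171 and 176.5 CPM with the control vector and at 155 and 150.2 CPM in wild type (log2 fold change -0.19, edgeR adjusted p = 0.498). Cd4, the co-receptor of helper T cells, stood at 434 and 349 against 379 and 413 CPM, with overlapping libraries and a log2 fold change whose sign changed under upper-quartile scaling. None of the 12 T cell identity genes was called, and their median log2 fold change was 0.05, also with a sign that changed under that scaling. Cd3e and Cd4 were chosen after their values were seen. No count fell on the microRNA genes Mir96, Mir182 or Mir183 in the 4 libraries, which in polyadenylated RNA does not measure the mature microRNAs.

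Between wild type and control vector 27 genes were called, that is, passed an edgeR quasi-likelihood test at a Benjamini-Hochberg adjusted p under 0.05 over the 11510 genes. Of these, 26 were higher in wild type (0.226% of the genes tested) and 1 was lower (0.00869%). At an unadjusted p under 0.05 there were 1916 genes (16.6%), 933 higher and 983 lower. The groups lay apart for many more genes, 56.1% of those tested. Both wild-type libraries lay above both control vector libraries for 29.3% of the genes tested and below them for 26.8%. These shares over all genes are the reference for the counts of list members below. The median log2 fold change over all genes was -0.00297. The number of calls depended on single libraries and fell to 5 without control vector library 1, to 16 without control vector library 2 and to 9 without wild-type library 2. It was 63 without wild-type library 1, 74 without miR-96 vector library 1 and 64 without miR-96 vector library 2. Of the 27 genes, Gbp2b, Il10, Jchain, St6galnac2 and Erdr1 kept their call under every alternative in which they were tested. These were 20 for Erdr1, which has no GC value, and 21 for the others. Il10 and Jchain had fewer than 10 counts in each control vector library and so had to differ to be tested, which makes their kept calls a description only.

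**Figure D1:**
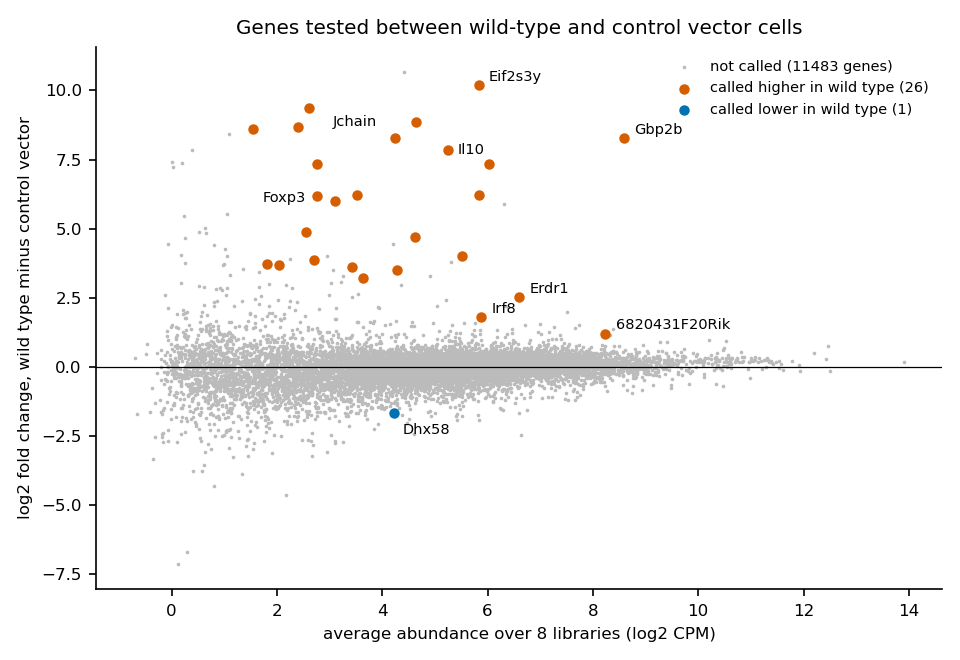
Log2 fold change of wild type minus control vector (vertical axis) against average abundance in log2 CPM over 8 libraries (horizontal axis) for the 11510 genes tested, with called genes in colour. The 26 genes called higher have log2 fold changes of 1.20 (6820431F20Rik) and above, and Dhx58 is the 1 gene called lower; fitted values of genes with hardly any control vector counts depend on a small prior count and are no measure of size.

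Of the 26 genes called higher, 14 had entered the comparison through the wild-type libraries alone, with fewer than 10 counts in each control vector library, and so had to differ to be tested. Across all genes tested, 72 had entered in this way and 179 through the control vector libraries alone. The 26 genes shared a pattern over the libraries. In 25 of the 26, wild-type library 1 was lower than library 2, with a median of 0.45 times its level, while over 9140 genes whose average was at least 3 on the log2 CPM scale the median ratio was 0.99. The exception was Erdr1. All 26 were also higher in both miR-96 vector libraries than in both control vector libraries. The share of all genes tested that lay so was not counted. The 26 were selected as low with the control vector relative to wild type, so this count is a description only. In miR-96 vector libraries 1 and 2 their medians were 0.435 and 0.498 of the level in wild-type library 2. Over the 9140 genes these medians were 0.983 and 0.956.

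Genes that were nearly absent from the control vector cells were also described as a set. Most of them were among the genes called higher, so their levels are no separate observation. Ifng and Uty were among those not called. A set of 31 genes, chosen by these very values and therefore given as a description, had at least 5 CPM in wild-type library 2 and at most 10% of that level in both control vector libraries. Relative to wild-type library 2 these genes stood at a median of 0.433 in wild-type library 1 (quartiles 0.401 and 0.492), at 0.416 and 0.497 in the miR-96 vector libraries and at 0.0126 and 0.0162 in the control vector libraries. All 31 lay between the control vector mean and wild-type library 2 in wild-type library 1. Choosing genes as high in library 2 and low with the control vector favours such a place. Wild-type library 1 also held Y-linked RNA together with Xist at the level of a control vector library. The wild-type means and p-values rest on libraries that differ in this way, and whether the handling of samples had a part was not tested. The knockout libraries divided the set, with medians of 0.129 and 0.434 and a range from 0 to 2.36.

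**Figure D2:**
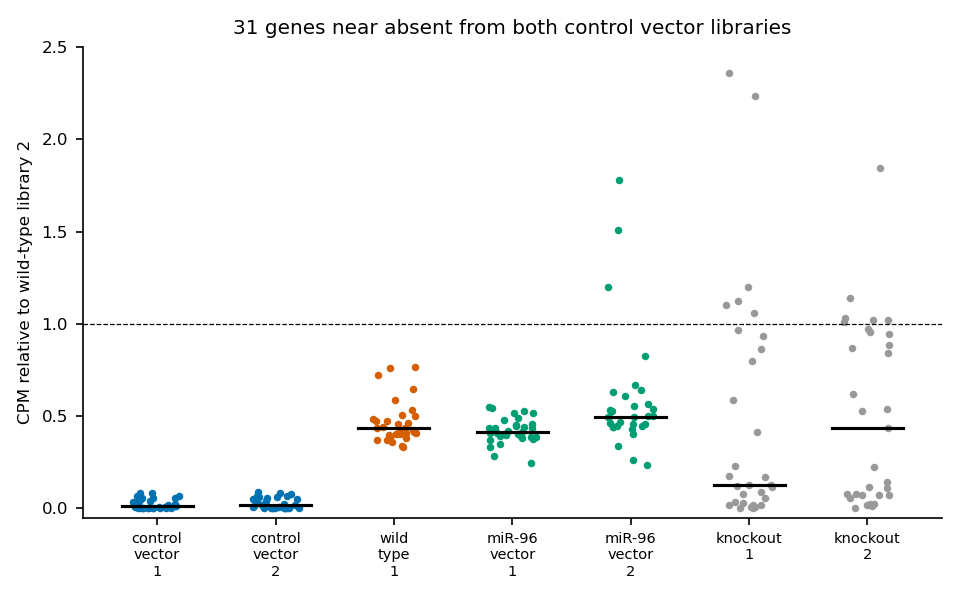
CPM relative to wild-type library 2 (vertical axis, the dashed line is 1) of the 31 genes nearly absent from both control vector libraries, 1 point per gene in each of the 7 other libraries, with the median as a bar. Wild-type library 1 and both miR-96 vector libraries sit at a median of 0.416 to 0.497, whereas the knockout libraries hold genes near 0 and genes near 1.

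The converse set was smaller. Only 6 genes had at least 5 CPM in both control vector libraries and at most 10% of the lower of these in wild-type library 2. They included Enah, a regulator of actin filaments, at 24.9 and 28.6 CPM with the control vector and at 31.7 and 0.889 CPM in wild-type libraries 1 and 2. Rab6b, a GTPase of vesicle traffic, stood at 21.35 and 16.1 against 11.1 and 0.1975 CPM, and 2010005H15Rik at 32.8 and 16.75 against 12.15 and 0 CPM. Among genes of this abundance, the wild-type libraries lay farthest apart for these 3 genes, followed by Nov, a matricellular protein, at 26.6 and 2.47 CPM, and the copine gene Cpne6 at 8.51 and 1.09 CPM. None of the 5 was called (lowest edgeR adjusted p = 0.339, that of 2010005H15Rik).

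Of the 4 Y-linked genes 3 were called. Eif2s3y, a subunit of a translation initiation factor (chromosome Y, 1010543 to 1028847, plus strand), had 1 count in the control vector libraries together and stood at 36.0 and 96.7 CPM in wild type, a ratio of 1610 (95% counting interval 288 to 63500; edgeR adjusted p = 0.00431). Kdm5d, a histone demethylase, likewise had 1 control vector count and stood at 16.04 and 36.15 CPM (ratio 627, interval 112 to 24800; edgeR adjusted p = 0.019). The helicase gene Ddx3y stood at 0.942 and 0 against 50.8 and 117 CPM (log2 fold change 7.32 ± 0.91 SE with an edgeR adjusted p of 0.019). Uty stood at 0 in both control vector libraries and at 11.3 and 31.4 CPM in wild type, and its edgeR adjusted p was 0.0711. For all 4 genes both wild-type libraries lay above both control vector libraries. Eif2s3y and Kdm5d had entered the comparison through the wild-type libraries alone and so had to be high there to be tested.

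A pair of neighbouring genes at the end of the X chromosome was also higher in wild type. Erdr1 (chromosome X, 170010526 to 170018797 on GRCm38.p6), which lies in the pseudoautosomal region that the X and Y chromosomes share, had the smallest p of all genes. It stood at 27.2 and 31.4 CPM with the control vector and at 180.2 and 158 CPM in wild type (log2 fold change 2.53 ± 0.15 SE with an edgeR adjusted p of 0.000489). Mid1, a ubiquitin ligase gene at the boundary of that region (chromosome X, 169685199 to 170005736, plus strand), rose from 1.81 and 1.44 to 105.5 and 139 CPM (log2 fold change 6.21 ± 0.82 SE with an edgeR adjusted p of 0.0218). Its knockout libraries lay apart at 11.2 and 73.6 CPM. In wild-type library 1 they stood at 1.14 (Erdr1) and 0.759 (Mid1) times the level of library 2, both above the median of the genes called higher. Reads of the pseudoautosomal region can be shared between copies, so the counts of both genes are uncertain.

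**Figure D3:**
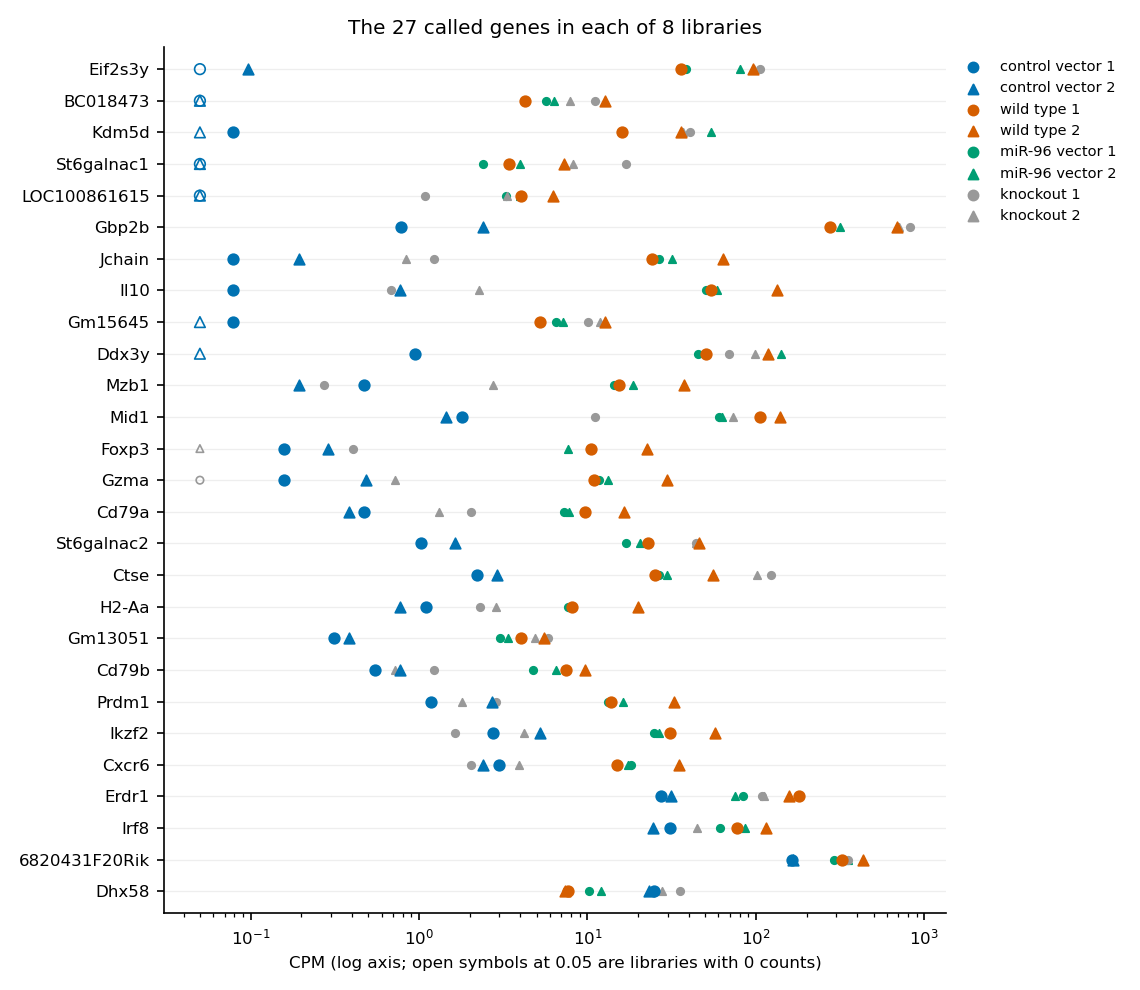
CPM on a log axis of the 27 called genes in each of the 8 libraries, coloured by group, with circles for library 1 and triangles for library 2 and open symbols for 0 counts. In every row but that of Dhx58 the wild-type libraries lie to the right of the control vector libraries, with the miR-96 vector libraries mostly at the level of wild-type library 1.

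Other called genes, drawn from several lists, encode regulators and effectors of T cells. Il10, the gene of an anti-inflammatory cytokine made by non-pathogenic Th17 and regulatory T cells (chromosome 1, 131019845 to 131024974, plus strand), stood at 0.0785 and 0.770 CPM with the control vector and at 53.8 and 134 CPM in wild type (log2 fold change 7.85 ± 0.73 SE with an edgeR adjusted p of 0.00431). It stood at 50.3 and 58.95 CPM in the miR-96 vector libraries and at 0.680 and 2.27 CPM in the knockout. The wild-type and miR-96 vector libraries were thus far above the control vector and knockout libraries, with no overlap. Il10 had entered the comparison through the wild-type libraries alone and so had to be high there to be tested. Foxp3, which defines regulatory T cells (chromosome X, 7573644 to 7595245), stood at 0.157 and 0.289 against 10.6 and 22.7 CPM (6.18 ± 0.72 SE, edgeR adjusted p = 0.0156). Ikzf2, which encodes Helios, a factor of thymus-derived regulatory T cells, stood at 2.75 and 5.20 against 30.7 and 57.5 CPM (3.49 ± 0.45 SE, edgeR adjusted p = 0.019). Prdm1, which encodes Blimp-1, a repressor that drives Il10 in T cells and the plasma cell fate in B cells, stood at 1.18 and 2.70 against 13.7 and 32.5 CPM (3.60 ± 0.52 SE, edgeR adjusted p = 0.0318). Foxp3, Ikzf2 and Prdm1 were at most at 4.18 CPM in the knockout libraries. In RNA of many cells together, fewer cells of a type and less RNA per cell cannot be told apart. Whether regulatory T cells had a part in these differences was not tested.

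Of the regulatory T list Foxp3 and Ikzf2 were called, and the other 12 tested genes were not. Foxp3 had entered through the wild-type libraries alone. Il2ra, the high-affinity chain of the interleukin 2 receptor, stood at 1378 and 1595 against 1842 and 1890 CPM (log2 fold change 0.33, edgeR adjusted p = 0.283), and the inhibitory receptor gene Ctla4 at 226 and 135 against 317 and 484 CPM (1.15, edgeR adjusted p = 0.143). Of the 14 members tested, both wild-type libraries lay above both control vector libraries for 7 and below them for 1. Among all genes tested, 29.3% lay above and 26.8% below. The median log2 fold change of the list was 0.33. Both calls of the list were lost without control vector library 1 or 2.

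Cxcr6, a chemokine receptor of tissue-homing T cells, stood at 2.98 and 2.41 against 14.9 and 35.2 CPM (log2 fold change 3.21 ± 0.45 SE with an edgeR adjusted p of 0.0304). Gzma, a granzyme of cytotoxic T and natural killer cells, stood at 0.157 and 0.482 against 10.9 and 29.6 CPM (6.00 ± 0.81 SE, edgeR adjusted p = 0.0236). Irf8, a transcription factor of myeloid and B cells that T cells also express, stood at 30.9 and 24.65 against 77.6 and 115 CPM (1.79 ± 0.27 SE, edgeR adjusted p = 0.0461) and was chosen after its values were seen. Of 7 tested genes of the CD8 T and natural killer list, Gzma, which had entered through the wild-type libraries alone, was called, the median log2 fold change was 2.85, and the list had a sum of 11.6 and 16.7 CPM in control vector libraries 1 and 2 and of 43.25 and 73.0 CPM in wild type. Its defining members differed among themselves. Cd8a, a chain of the CD8 co-receptor, stood at 0.157 and 0.770 against 2.31 and 4.25 CPM (2.85, edgeR adjusted p = 0.149), and the receptor gene Klrk1 at 0.393 and 0 against 1.34 and 2.27 CPM (3.03, edgeR adjusted p = 0.187). Cd8b1, which encodes the other chain, stood at 4.55 and 5.01 against 4.74 and 3.26 CPM, and the natural killer cell receptor genes Ncr1 and Klrb1c were at 0 in all 4 libraries. The perforin gene Prf1 stood at 2.43 and 0.963 against 8.99 and 19.4 CPM (edgeR adjusted p = 0.0711). Whether these cells had a part in the rise of Gzma was not tested. Cd8a, Cd8b1, Klrk1, Ncr1, Klrb1c and Prf1 were chosen after their values were seen.

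Genes of B and plasma cells were a further group. Jchain, the joining chain of polymeric antibodies (chromosome 5, 88519809 to 88527891, minus strand), had 3 counts in the control vector libraries together and stood at 24.3 and 64.1 CPM in wild type, a ratio of 356 (95% counting interval 122 to 1730; edgeR adjusted p = 0.00269). Mzb1, a chaperone of antibody assembly, stood at 0.471 and 0.193 against 15.3 and 37.5 CPM (log2 fold change 6.22 ± 0.83 SE with an edgeR adjusted p of 0.0236). Cd79a (chromosome 7, 24897381 to 24902197) and Cd79b (chromosome 11, 106311341 to 106314762), the signalling chains of the B cell receptor, also rose. Cd79a stood at 0.471 and 0.385 against 9.72 and 16.6 CPM (4.89 ± 0.47 SE, edgeR adjusted p = 0.00431). Cd79b stood at 0.550 and 0.770 against 7.41 and 9.68 CPM (3.68 ± 0.46 SE, edgeR adjusted p = 0.019).

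Of the 12 listed B and plasma cell markers, 9 were tested, 4 were called, all higher, and both wild-type libraries lay above both control vector libraries for 7 and below them for 1. All 4 had entered the comparison through the wild-type libraries alone and so had to be high there to be tested, which makes the count and the median of the 9 (3.68) a description only. The list had a sum of 167 and 201 CPM in control vector libraries 1 and 2 and of 356 and 429 CPM in wild type, of which Xbp1, a factor of secretory cells that T cells also express, made up 134 and 180 CPM and 277 and 269 CPM. Defining B cell markers were low throughout, with Ms4a1, which encodes CD20, at 0.0785 and 0.0963 against 1.94 and 4.45 CPM, and with Pax5, Cd22 and Cr2 below the limit for testing. Ebf1, a transcription factor of early B cells, stood at 26.3 and 14.6 against 13 and 15.3 CPM. H2-Aa, a chain of the class II antigen-presenting molecule, rose from 1.10 and 0.770 to 8.14 and 19.9 CPM (3.88 ± 0.50 SE, edgeR adjusted p = 0.019), while Cd74, the chain that class II molecules assemble with, stood at 78.8 and 42.7 against 38.8 and 73.7 CPM. Whether B or plasma cells had a part in these differences was not tested. Xbp1, Ms4a1, Pax5, Cd22, Cr2, Ebf1 and Cd74 were chosen after their values were seen.

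Markers of other cell types did not reach the limit for testing or were not called. Of 10 myeloid markers 3 were tested and 0 called, among them the lysosomal gene Cd68, which stood at 13.3 and 6.16 against 4.50 and 3.85 CPM (edgeR adjusted p = 0.337). Cybb, a subunit of the phagocyte oxidase, lay the other way at 3.22 and 0.193 against 6.08 and 11.75 CPM (edgeR adjusted p = 0.233), and the libraries of the remaining marker, Cst3, overlapped. None of the 6 erythroid markers and none of the 3 gamma delta T cell markers in the table was tested. The gamma delta list summed to at most 0.785 CPM with the control vector and to 2.67 and 6.32 CPM in wild type. Cybb and Cst3 were chosen after their values were seen.

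Gbp2b headed a group of genes that was high in the knockout as well. Gbp2b (chromosome 3, 142594847 to 142619179, plus strand), whose promoter is printed above, stood at 0.785 and 2.41 CPM with the control vector and at 276 and 689.5 CPM in wild type (log2 fold change 8.28 ± 0.58 SE with an edgeR adjusted p of 0.00117). The miR-96 vector libraries held 278 and 316.5 CPM and the knockout libraries 826 and 704 CPM, so the control vector libraries were alone in nearly lacking it. Reads can be shared among Gbp genes, which makes single counts uncertain. Ctse, the protease cathepsin E (chromosome 1, 131638306 to 131675505), stood at 2.20 and 2.89 against 25.3 and 55.3 CPM (log2 fold change 4.00 ± 0.39 SE with an edgeR adjusted p of 0.00446) and at 124 and 102 CPM in the knockout. St6galnac2, a sialyltransferase (chromosome 11, 116676703 to 116695782), stood at 1.02 and 1.64 against 23.0 and 45.7 CPM (4.71 ± 0.40 SE, edgeR adjusted p = 0.00269) and at 44.1 and 44.4 CPM in the knockout.

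Neighbours of St6galnac2 on chromosome 11 were called as well. The related gene St6galnac1 (116765025 to 116775507, minus strand) had 0 control vector counts and stood at 3.40 and 7.21 CPM in wild type, at least 42.4-fold higher with a floor of 3 counts over the group. The antisense gene BC018473 (116752167 to 116759373, plus strand) also had 0 control vector counts and was at least 68.9-fold higher. The other calls were Gm15645, a processed pseudogene with 1 control vector count (ratio 215, 95% counting interval 38.1 to 8560), and LOC100861615, with 0 control vector counts and at least 40.3-fold higher. Gm13051 stood at 0.314 and 0.385 against 4.01 and 5.53 CPM, and 6820431F20Rik at 163 and 166 against 324 and 433.5 CPM. Near-identical copies make the counts of such genes and pseudogenes uncertain. These 4 genes, St6galnac1 and BC018473 were chosen after their values were seen. All of them but 6820431F20Rik had entered the comparison through the wild-type libraries alone.

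The knockout levels thus divided the genes called higher. Of the 26, 16 were at no more than 5% of the level of wild-type library 2 in both control vector libraries. The knockout mean was at least 25% of that level for 10 of the 16, such as Gbp2b and St6galnac1, and under 10% for 5 of them, Foxp3, Gzma, Il10, Jchain and Mzb1.

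Dhx58 was the only gene called lower in wild type. It encodes LGP2, a cytosolic RNA sensor of the RIG-I family that is itself induced by interferon (chromosome 11, 100694884 to 100704271, minus strand). Dhx58 stood at 24.8 and 23.3 CPM with the control vector and at 7.65 and 7.31 CPM in wild type (log2 fold change -1.68 ± 0.21 SE with an edgeR adjusted p of 0.019). Duplicates were close in both groups and the groups lay apart. Its level was 10.3 and 11.99 CPM in the miR-96 vector libraries and 35.5 and 27.7 CPM in those of the knockout, so the control vector and knockout libraries were on the higher side. The call was lost when any 1 of the 4 libraries was left out (highest edgeR adjusted p = 0.287).

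Other sensors of nucleic acids were mixed. Of 13 tested genes of the list Dhx58 was the single call. Both wild-type libraries lay below both control vector libraries for 5 and above them for 1 (26.8% and 29.3% among all genes tested). The median log2 fold change was 0.07, with a sign that changed under 3 of 21 alternatives. Type I interferon-stimulated genes were lower in wild type as values, with 0 of 19 called, both wild-type libraries below for 12 and above for 1, and a median log2 fold change of -0.70. Ifi27l2a, an interferon-induced mitochondrial protein, stood at 184 and 248 against 81.0 and 106.5 CPM (-1.20 ± 0.25 SE, edgeR adjusted p = 0.11). Irf7, the master regulator of type I interferon, stood at 15.7 and 17.3 against 5.59 and 8.69 CPM (edgeR adjusted p = 0.148), and Oas3, which makes the signal for RNase L, at 51.7 and 65.8 against 19.2 and 14.7 CPM (edgeR adjusted p = 0.0711). The median of the list was -0.24 without control vector library 2 and -1.28 without control vector library 1. Irf7 and Oas3 were chosen after their values were seen.

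Genes induced by interferon gamma were mostly higher in wild type as values, and the difference from the type I list was not tested. Interferon gamma induces GTPases of the GBP and IRG families, which attack vacuoles that hold microbes. Of 13 such GTPase genes both wild-type libraries lay above both control vector libraries for 12, against 29.3% among all genes tested. The single call was Gbp2b, and the median log2 fold change was 1.41. Without Gbp2b the list had a sum of 1228 and 1732 CPM in control vector libraries 1 and 2 and of 2357 and 3024 CPM in wild type. It summed to 1851 and 1721 CPM with miR-96 and to 1239 and 1559 CPM in the knockout. Igtp stood at 148 and 255 against 445 and 600.2 CPM (edgeR adjusted p = 0.11), Irgm1 at 40.5 and 86.3 against 135 and 227 CPM (edgeR adjusted p = 0.156) and Gbp6 at 20.2 and 49.4 against 108 and 202.5 CPM (edgeR adjusted p = 0.123). Gbp2 was the exception at 667 and 685 against 628 and 528 CPM. The median GC content of these transcripts was 43.8%, against 49.6% for all genes tested, and with a correction for GC content their median log2 fold change was 1.39.

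The gene of the cytokine itself also had higher values in wild type. Ifng, which encodes interferon gamma, stood at 0.393 and 6.45 CPM with the control vector and at 119 and 272 CPM in wild type (log2 fold change 5.91, edgeR adjusted p = 0.0711). The miR-96 vector libraries held 112 and 120.3 CPM of it and the knockout libraries 0 and 7.16 CPM. Tbx21, which encodes T-bet, the factor that drives Ifng, stood at 23.3 and 28.9 against 57.1 and 98.5 CPM (1.58, edgeR adjusted p = 0.0776). Neither was called, although no wild-type library overlapped a control vector library for either. Of 11 genes of class I antigen presentation, which interferon gamma also induces, 0 were called and 6 lay above in both wild-type libraries. The share above among all genes tested was 29.3%. The list had a median log2 fold change of 0.37, and of 0.13 without wild-type library 2. B2m, the light chain of class I, stood at 1110.0 and 1228 against 1280.0 and 1738 CPM. Ifng, Tbx21, Igtp, Gbp6 and Gbp2 were chosen after their values were seen.

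Genes of the Th17 program were mostly higher in wild type without passing the test. Of 17 core genes 0 were called, and both wild-type libraries lay above both control vector libraries for 9 and below them for 1. The shares of all genes tested were 29.3% above and 26.8% below. The median log2 fold change of the core genes was 0.53. That median was 0.34 without wild-type library 2, 0.81 without wild-type library 1 and 0.88 without control vector library 1. Il17a, the defining cytokine, stood at 122.5 and 90.5 CPM with the control vector and at 164 and 260 CPM in wild type (0.99 ± 0.33 SE, edgeR adjusted p = 0.222). Il17f stood at 234 and 129 against 210 and 326 CPM (0.56 ± 0.33 SE, edgeR adjusted p = 0.395), and its libraries overlapped. Higher on average were Hif1a, an oxygen-sensing factor that promotes Th17 glycolysis, at 1061 and 1163 against 1680.0 and 1734 CPM (0.62, edgeR adjusted p = 0.171), and Irf4, a factor needed for Th17 differentiation, at 820 and 1034 against 1193 and 1216 CPM (0.38, edgeR adjusted p = 0.257).

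Among regulators and receptors, Maf, an inducer of Il10, stood at 126 and 98.7 against 180.1 and 276.5 CPM (edgeR adjusted p = 0.143). Il1r1, the interleukin 1 receptor, stood at 13.7 and 10.1 against 23.9 and 41.7 CPM (edgeR adjusted p = 0.126), and Rora, a nuclear receptor of the Th17 fate, at 64.3 and 29.3 against 84.0 and 158 CPM (edgeR adjusted p = 0.177). For all 3 both wild-type libraries lay above both control vector libraries, and wild-type library 2 was the highest of the 4. Foxo1, a transcription factor known to hold back the Th17 fate and described as a target of the microRNA cluster, stood at 118 and 144 against 156 and 194 CPM (0.41 ± 0.15 SE, edgeR adjusted p = 0.25).

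The pathogenic and non-pathogenic programs showed the same tendency in their values. Of 18 tested pathogenic genes 0 were called, and 11 lay above in both wild-type libraries and 2 below (29.3% and 26.8% among all genes). Their median log2 fold change was 0.77. The median was 0.49 without wild-type library 2 and 1.42 without control vector library 2. Csf2, the gene of GM-CSF, stood at 7.145 and 10.7 against 23.0 and 33.7 CPM (edgeR adjusted p = 0.276), and the cytokine gene Il22 at 2.67 and 0.963 against 8.51 and 14.4 CPM (edgeR adjusted p = 0.255). Gzmb, a granzyme, stood at 195 and 566 against 639 and 670 CPM (0.78, edgeR adjusted p = 0.373), with control vector library 1 far below the other 3 libraries. Icos, a co-stimulatory receptor, stood at 214 and 252 against 329 and 401 CPM (0.65, edgeR adjusted p = 0.196). Of 7 tested non-pathogenic genes Il10 was called and 4 lay above in both wild-type libraries, Il10 and Maf among them. Il10 had entered the comparison through the wild-type libraries alone, so its call says nothing about the list. Of 9 inhibitory receptor genes 0 were called and 6 lay above (median 0.98, and 0.51 without control vector library 1), with Lag3 at 42.3 and 48.6 against 85.4 and 122 CPM and Btla at 309 and 322 against 271.5 and 278 CPM. Maf, Il1r1, Rora, Csf2, Il22 and Lag3 were chosen after their values were seen.

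Genes of T cell activation and of the naive or memory state were mixed. Of 12 genes of T cell receptor activation 0 were called, 7 lay above in both wild-type libraries and 0 below, with a median log2 fold change of 0.26 that was 0.56 without control vector library 2. Il2, the growth factor of activated T cells, stood at 8.48 and 50.1 against 20.8 and 18.2 CPM, and Cd40lg, which signals to B cells, at 80.3 and 172 against 105 and 62.7 CPM, with overlapping libraries. Their log2 fold changes of -0.58 and -0.59 changed sign without control vector library 2. Of 15 immediate early genes 0 were called, 3 lay above, 1 below and 11 overlapped, with a median of -0.02 whose sign changed under 3 alternatives. Tnfrsf9, which encodes the co-stimulatory receptor 4-1BB, stood at 220 and 222 against 350 and 408 CPM (0.78, edgeR adjusted p = 0.0674). Il21, a cytokine of activated helper T cells, stood at 602 and 904 against 915 and 1121 CPM (0.44, edgeR adjusted p = 0.331). Of 14 naive or memory genes 0 were called, 6 lay below in both wild-type libraries (26.8% among all genes tested) and 4 above (29.3% among all), and the median was -0.25, which was -0.06 without control vector library 1. Klf2, a factor of quiescence and circulation, stood at 18.9 and 19.2 against 9.23 and 5.33 CPM (edgeR adjusted p = 0.11), and Tcf7, a factor of the memory state, at 234 and 169 against 117 and 89.9 CPM (edgeR adjusted p = 0.153). Il2, Cd40lg, Tnfrsf9, Klf2 and Tcf7 were chosen after their values were seen.

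**Figure D4:**
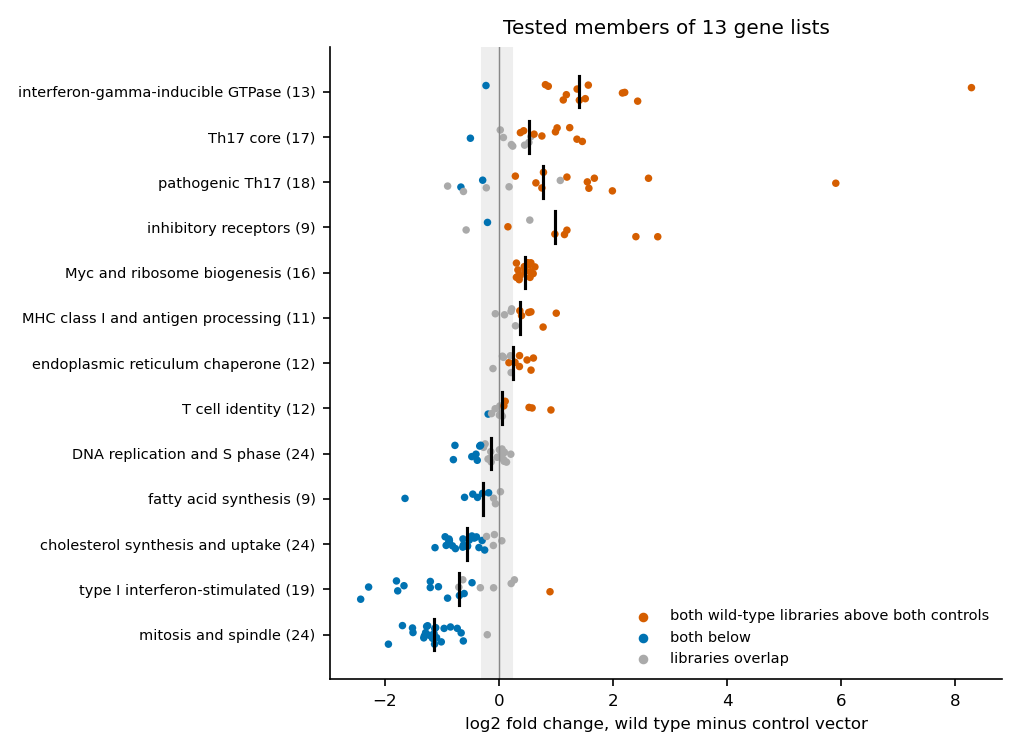
Log2 fold change of wild type minus control vector (horizontal axis) of each tested member of 13 gene lists, coloured by whether the libraries of the groups overlap, with list medians as bars; the grey band spans the quartiles of all genes tested. Interferon-gamma-inducible GTPases (median 1.41) lie to the right and mitosis genes (median -1.14) to the left.

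Genes of mitosis were lower in wild type as values. These genes build the spindle, drive entry into mitosis and separate the chromosomes. Of 24 tested, both wild-type libraries lay below both control vector libraries for 23, against 26.8% among all genes tested. The median log2 fold change was -1.14, yet 0 were called. The list had a sum of 3065 and 3635 CPM in control vector libraries 1 and 2 and of 1743 and 1702 CPM in wild type. It summed to 2505 and 1188 CPM with miR-96 and to 4408 and 3299 CPM in the knockout, so its level spread widely within the miR-96 group. Ccnb2 stood at 63.3 and 46.6 against 14.2 and 14.5 CPM (log2 fold change -1.94, edgeR adjusted p = 0.0639), and Plk1 at 56.1 and 65.8 against 20.1 and 17.8 CPM (-1.69, edgeR adjusted p = 0.11). Top2a, which untangles DNA before chromosomes separate, stood at 751 and 946.5 against 538 and 536 CPM (-0.66, edgeR adjusted p = 0.298), and the proliferation marker Mki67 at 510.3 and 721 against 349 and 336 CPM (-0.85, edgeR adjusted p = 0.276). The exception was Ttk, a checkpoint kinase, at 19.8 and 24.55 against 17.6 and 20.8 CPM. The list median ranged from -1.24 to -1.07 over 21 alternatives.

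Genes of DNA replication mostly overlapped between the groups. Of 24 tested, 7 lay below in both wild-type libraries and 17 overlapped, with 0 called. The share below, 29.2%, was close to the 26.8% among all genes tested. The median was -0.14, and 0.12 without control vector library 2. Of 18 inhibitors of the cell cycle and genes of the p53 response, 11 lay below and 2 above (26.8% and 29.3% among all genes). None was called, and the median was -0.25, and -0.38 without wild-type library 1. Ttk was chosen after its values were seen.

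Genes of cholesterol synthesis and uptake were lower in wild type as a group of values. Of 24 tested, both wild-type libraries lay below for 20 and above for 0, against 26.8% and 29.3% among all genes tested. There were 0 called, and the median log2 fold change was -0.55. Hmgcs1, an early enzyme of the mevalonate pathway, stood at 364 and 283 CPM with the control vector and at 172 and 181 CPM in wild type (-0.87 ± 0.20 SE, edgeR adjusted p = 0.129). Fdps, which makes farnesyl diphosphate, stood at 267 and 224 against 126 and 144 CPM (edgeR adjusted p = 0.156). Srebf2, the transcription factor that drives the pathway, stood at 366 and 321 against 252 and 244 CPM (-0.47 ± 0.16 SE, edgeR adjusted p = 0.23). The groups lay apart for all 3. Of 5 genes of cholesterol efflux, which oxysterol receptors induce, 4 lay above and 1 below (median 0.37, and 0.66 with the GC correction), with the exporter Abcg1 at 34.4 and 45.35 against 56.6 and 45.8 CPM and the receptor Nr1h2 at 64.8 and 60.7 against 74.6 and 87.3 CPM. Of 9 fatty acid synthesis genes 6 lay below (median -0.28, and -0.16 with the GC correction). Fads2, a desaturase, stood lowest at 33.9 and 34.9 against 11.5 and 10.5 CPM (-1.64, edgeR adjusted p = 0.11), while the abundant desaturase Scd2 stood at 769 and 806 against 721 and 671 CPM (-0.18, edgeR adjusted p = 0.579). Fdps and Fads2 were chosen after their values were seen.

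Genes of ribosome production were higher in wild type without exception among those listed. For all 16 tested genes of the Myc and ribosome biogenesis list both wild-type libraries lay above both control vector libraries, with 0 called and log2 fold changes between 0.31 and 0.63 (median 0.46, and 0.30 without control vector library 1). Myc, which drives growth, stood at 404 and 397 against 463 and 529 CPM (0.31, edgeR adjusted p = 0.297). The nucleolar proteins Ncl and Npm1 stood at 1398 and 1871 against 2309 and 2470.0 CPM (0.55, edgeR adjusted p = 0.243) and at 2078 and 2188 against 2612 and 2768 CPM (0.33, edgeR adjusted p = 0.295). Chaperones of the endoplasmic reticulum lay above for 7 of 12 and below for 0, against 29.3% and 26.8% among all genes tested. Their median was 0.25, 0.16 without control vector library 1 and 0.495 without control vector library 2. Hspa5 stood at 688 and 959 against 1115 and 1207 CPM, and Hsp90b1 at 411 and 562 against 664 and 776 CPM. Genes of oxidative phosphorylation, glycolysis and the hypoxia response mostly overlapped, with 14 of 20, 11 of 18 and 8 of 11 and medians of 0.06, -0.13 and -0.14, each with a sign that changed under at least 1 alternative.

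**Figure D5:**
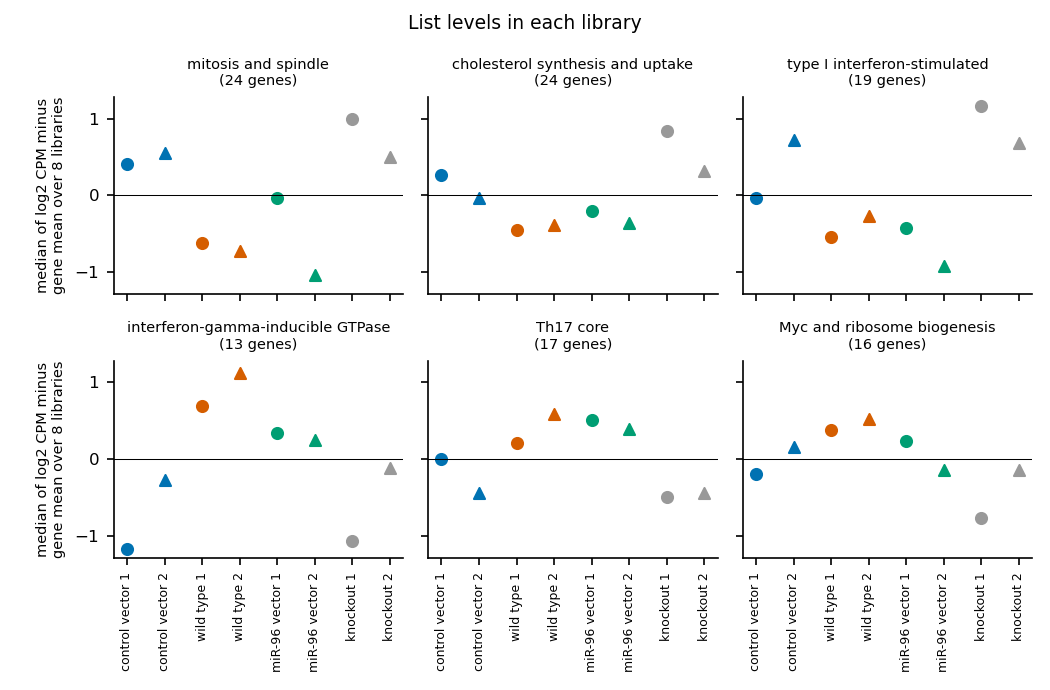
Level of 6 gene lists in each of the 8 libraries, as the median over members of log2 CPM minus the mean of the gene over the 8 libraries (vertical axis), with 1 symbol per library. Wild-type libraries lie below the control vector libraries for mitosis and cholesterol genes and above them for GTPases, Th17 core genes and ribosome biogenesis; the miR-96 vector libraries lie farther apart for mitosis than for cholesterol genes.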

How the data were processed

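RNA of 8 libraries in 4 groups of 2 was measured by polyadenylated RNA sequencing. Per the submitters' processing notes, bcl2fastq 2.16.0.10, STAR 2.3.0, Partek, edgeR and the build mm10 were used; the annotation and the use of strand in counting are not given in the sources used here. The authors deposited estimated counts per gene, which were rounded to whole numbers here; 27 of the lines carried a date number in place of a symbol (at most 0.243% of a library's counts) and were left out.

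Genes with at least 10 counts in 2 of the 4 libraries compared were tested with edgeR 4.0.16 in R 4.3.3, with TMM scaling, a quasi-likelihood F test, a group term over all 8 libraries (4 residual degrees of freedom) and Benjamini-Hochberg adjustment at 0.05. CPM use TMM-scaled totals; SE is the size of the log2 fold change over the square root of F. Fold floors are 3 counts over a group; they and the intervals reflect counting error alone.

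Positions come from GENCODE M21 and RefSeq on GRCm38.p6. Genes were named as the 12 largest changes at 3 or more on the average log2 CPM scale, the 5 smallest p in each direction, up to 3 called members of a list by p or else its 2 most abundant, the microRNA cluster, Il17a, Il17f, Foxo1, sex-linked genes, and the 5 genes with wild-type libraries farthest apart. The genes, lists and alternatives were chosen with earlier results of these data known. The procedure was tested on simulated data. Alternatives were other filters, scalings, DESeq2 1.42.0, fewer libraries, a replicate block, unrounded counts and a GC offset. Some genes that the rule names are not reported here.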

Additional observations from a re-analysis of the deposited data

How the results depend on the processing

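The 27 calls (26 higher, 1 lower) became 1108 of 16931 genes without a filter (435 higher, 673 lower), 372 with DESeq2 (171 and 201), 86 with the 4 compared libraries alone (37 and 49), 76 without both miR-96 vector libraries (36 and 40) and 33 without both knockout libraries (29 and 4). They were 27 with another expression filter, RLE factors or unrounded counts, 26 with upper-quartile factors, and 23 with a GC offset or without the sex-linked genes. Dropping both libraries of another group and the GC offset were chosen after seeing the data. With the replicate block 62 genes were called over 8 libraries (46 and 16) and 483 over 4 (203 and 280). Deviations of same-numbered libraries correlated at 0.011 between the compared groups and at -0.319 to 0.416 between other pairs of groups. Not every pair exceeded 0.1, and no label says what a number marks, so the numbers were not taken as a pairing. Leaving out 1 library gave 5 to 74 calls, 5 to 52 higher and 0 to 39 lower. Of the called genes, 5 kept their call under every alternative in which they were tested, 20 for Erdr1, which has no GC value, and 21 for the others. Cd79a, Ctse and Eif2s3y lost it only without control vector library 1. Il10 and Jchain, which kept it, and Cd79a and Eif2s3y had entered the comparison through the wild-type libraries alone. Log2 fold changes changed sign for Enah (-4.89 to 0.25 when leaving out 1 library), Il2 (-1.37 to 1.19 likewise), Cd40lg (-1.05 to 0.0541 likewise) and Cd4 (-0.0319 with upper-quartile factors, -0.14 to 0.18 when leaving out 1 library). Of 79 uncalled genes followed, 49 were called under at least 1 alternative. The causes were not tested. With duplicates only, a difference that missed the test is not shown to be absent.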
